A study of Mus musculus with 4 samples.

Results

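The genes described here are 10 members of the transforming growth factor beta (TGF-beta) system in injured mouse lung: the ligands Tgfb1, Tgfb2 and Tgfb3, the latency protein Ltbp1, the activating integrin chains Itgb6 and Itgav, the receptors Tgfbr1 and Tgfbr2, and the feedback genes Smad7 and Skil. They were taken by name from the gene expression rows, and all 10 were found among the 31053 genes listed in both libraries. The study measured RNA and open chromatin in the same nuclei of sorted lung cells from male mice, on day 8 after bleomycin, which injures alveoli. The control library came from SftpcCreERT2; Rosa26mTmG mice, and the other, called the CKO library after its label, from mice that also carried the floxed allele written IPF/F. The series title names the prostaglandin I2 receptor, which Ptgir encodes. Both libraries thus share bleomycin, a tamoxifen-inducible Cre driven by the surfactant protein C gene of alveolar type 2 (AT2) cells, and a membrane reporter that turns green after Cre acts. GFP+ cells labelled as AT2 cells were sorted and their nuclei isolated, with 1 library per genotype. No difference between genotypes could therefore be tested, and how many mice went into a library is not given in the sources used here.

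TGF-beta is secreted in a latent complex, in which a propeptide wraps the growth factor and a latent TGF-beta binding protein such as Ltbp1 ties the complex to the matrix. In the lung epithelium the integrin made of the alpha v chain (Itgav) and the beta 6 chain (Itgb6) pulls on an RGD motif in the propeptides of Tgfb1 and Tgfb3 and frees the ligand. The Tgfb2 propeptide lacks that motif. Freed ligand binds the type II receptor Tgfbr2, which recruits and activates the type I receptor Tgfbr1, and Smad proteins carry the signal to the nucleus. Smad7, which targets the receptor for removal, and Skil (SnoN), a Smad co-repressor, are induced or regulated by the pathway and restrain it. This route is a known driver of lung fibrosis and of the passage of AT2 cells through a transitional state toward the flat alveolar type 1 (AT1) cells.

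The control files held 13569 barcodes with 48378328 unique molecules (UMIs), and the CKO files 10925 with 30818808. After filters, chiefly a mitochondrial share under 20%, 2173 and 3883 nuclei remained, and 193 barcodes occurred in both libraries, 17 of them among kept nuclei. Levels are given as CPM, the UMIs of a gene per 1000000 nuclear-encoded UMIs, summed over the nuclei of a class in a library, with exact 95% Poisson intervals that cover counting error only. Values in pairs are given for the control library first and the CKO library second, and classes are ranked only where a library holds at least 30 nuclei of them. The clusters, made from both libraries together but without the 10 genes and the other pathway genes, were named from marker lists. The AT2-like nuclei numbered 1471 and 1223, the transitional-like nuclei 408 and 628, and the AT1-like nuclei 147 and 463 in the control library and the CKO library. Clustered on its own, the control library gave no transitional-like or AT1-like class, with 548 nuclei named club-like and 983 unnamed. A class order found in both libraries is therefore not 2 independent results. These alveolar nuclei made up 93.2% of the control library and 59.6% of the CKO library, whose other nuclei were mostly leukocytes: 484 neutrophil-like, 382 macrophage- and monocyte-like, and 351 T- and NK-like. The control library held 2, 31 and 57 of these, so the sort label did not describe every nucleus. Nearly all AT2-like nuclei of the control library fell into clusters 2 and 4 (905 and 489 nuclei), while 1190 of those of the CKO library fell into cluster 0, and cluster 4 was shallow and led by the transcripts AY036118 and Gm42418. The transitional-like name rests on a marker list that was not highest there: the list summed to 1819 and 1896 CPM in transitional-like nuclei, 2344 and 2707 in AT1-like nuclei and 1266 and 1314 in AT2-like nuclei. Krt8, its best known marker, stood at 219 CPM in transitional-like and 264 in AT2-like nuclei of the control library. In AT2-like nuclei the surfactant gene Sftpc stood at 101 and 196 CPM, against 31.0 and 53.9 in the AT1-like class, and the AT1 marker Ager at 223 and 318, against 383 and 601. Ager did not set the AT1-like class of the control library (337 to 434) apart from AT2-like cluster 0. The 77 control nuclei of that cluster had 426 CPM (350 to 513). Ptgir gave 0 and 1 UMIs in the alveolar nuclei, so the genotype label could not be checked.

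RNA of epithelial genes was also counted in other cells, and its source was not tested. Sftpb, a surfactant gene of epithelial cells, stood at 2972 and 5223 CPM in AT2-like nuclei and still at 2010 and 2009 in leukocytes of the control library and the CKO library. The level of each epithelial gene is therefore set beside its level in leukocytes. Levels are compared between classes and libraries, not between genes.

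Start regions of 4 members are shown because the results below turn on where these genes are read and on whether chromatin there is open. Each is the 250 bases before a RefSeq start on build GRCm38.p6, 5′ to 3′ on the strand of the gene. Capitals mark the SMAD motif CAGACA or its reverse TGTCTG, found in 17.1% of the 32851 RefSeq promoters of that length. The AP-1 motif TGANTCA (6.75% of promoters) and the TEAD motif GGAATG (12.6%) were searched on both strands as well and matched none of the members' windows. The Tgfb1 window is chr7:25686752-25687001 on the plus strand, has a GC content of 75.2% and lies wholly in a peak of both libraries. The Tgfb2 window is chr1:186705990-186706239 on the minus strand, and the nearest peak begins 124 bases past the start in the control library and 122 in the CKO library. The Ltbp1 window is chr17:75178531-75178780 on the plus strand, before the downstream of the 2 RefSeq starts, and lies wholly in a peak of both libraries. The Itgb6 window is chr2:60722604-60722853 on the minus strand, and the nearest peak lies 1730 and 1368 bases away.
Tgfb1: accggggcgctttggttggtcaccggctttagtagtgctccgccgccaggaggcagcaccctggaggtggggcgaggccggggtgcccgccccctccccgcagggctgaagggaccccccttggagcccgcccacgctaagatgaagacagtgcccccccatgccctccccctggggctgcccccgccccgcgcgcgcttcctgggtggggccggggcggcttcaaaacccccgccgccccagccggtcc
Tgfb2: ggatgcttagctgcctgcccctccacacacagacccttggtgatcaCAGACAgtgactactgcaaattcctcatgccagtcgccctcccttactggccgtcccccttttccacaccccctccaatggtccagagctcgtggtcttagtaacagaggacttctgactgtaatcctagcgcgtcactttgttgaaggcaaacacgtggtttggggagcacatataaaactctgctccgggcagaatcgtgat
Ltbp1: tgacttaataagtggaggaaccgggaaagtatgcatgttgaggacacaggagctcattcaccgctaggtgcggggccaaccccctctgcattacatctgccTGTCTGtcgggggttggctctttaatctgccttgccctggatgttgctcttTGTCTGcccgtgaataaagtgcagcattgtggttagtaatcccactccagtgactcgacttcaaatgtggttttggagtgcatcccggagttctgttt
Itgb6: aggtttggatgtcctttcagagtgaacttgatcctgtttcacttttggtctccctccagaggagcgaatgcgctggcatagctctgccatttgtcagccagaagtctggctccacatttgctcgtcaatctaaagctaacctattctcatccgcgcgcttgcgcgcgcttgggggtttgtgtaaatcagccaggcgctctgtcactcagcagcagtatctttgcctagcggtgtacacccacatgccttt
The Tgfb2 window holds 1 SMAD motif and the Ltbp1 window shown 2. Of the 10 windows of members in the promoter table, 3 held one, the other being at the downstream start of Tgfbr1 with 1, and the window of the upstream Ltbp1 start held 0. Smad7, Skil and Tgfb3 had no entry in the promoter table. A match describes letters only, not a bound factor.

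Among the ligands, Tgfb1 had its highest levels in leukocytes and Tgfb2 in AT1-like nuclei. Tgfb1, the ligand best known in fibrosis, reached 65.9 CPM (34.0 to 115) in control and 130 (109 to 154) in CKO nuclei of the macrophage- and monocyte-like class. In AT2-like nuclei it stood at 11.1 (8.15 to 14.7) and 9.25 (6.24 to 13.2). In the CKO library, B-lineage-like nuclei had 69.0, T- and NK-like nuclei 65.5, dendritic-like nuclei 61.4, endothelial-like nuclei 52.8, fibroblast-like nuclei 38.2 and neutrophil-like nuclei 31.2 CPM, and the intervals of the first 5 overlap. Macrophage- and monocyte-like nuclei stood above T- and NK-like nuclei (49.1 to 85.7) with no overlap, and every one of these classes but the neutrophil-like and fibroblast-like nuclei exceeded the highest alveolar class (AT1-like, 14.8, 9.83 to 21.4) by more than 2-fold with intervals that do not overlap. Alveolar nuclei as a whole had 10.7 against 35.7 CPM in all other nuclei of the control library, 3.35-fold lower, and 11.2 against 65.9 in the CKO library, 5.90-fold lower. Leukocytes were 33.8% of the nuclei of the CKO library and held 68.9% of their Tgfb1 UMIs.

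Tgfb2, a ligand with roles in epithelial and mesenchymal development, showed the opposite side. AT1-like nuclei had 228 CPM (193 to 268) from 147 control UMIs and 174 (156 to 194) from 330 CKO UMIs. Transitional-like nuclei had 67.7 (52.0 to 86.6) and 21.5 (14.7 to 30.4), and AT2-like nuclei 7.79 (5.36 to 10.9) and 4.01 (2.13 to 6.86). The order AT1-like, transitional-like, AT2-like held in both libraries with no overlap of intervals, over classes drawn from both libraries together. AT1-like nuclei exceeded AT2-like nuclei 29.3-fold in the control library (log2 ratio 4.87, 4.32 to 5.46) and 43.5-fold in the CKO library (5.44, 4.65 to 6.37). Leukocytes stood at 17.9 (6.57 to 38.9) in the control library, where 2 nuclei gave 5 of the 6 UMIs. In the CKO library they stood at 29.4 (23.4 to 36.4), so neither the AT2-like nor the transitional-like level there was above that of another lineage. Fibroblast-like nuclei of the CKO library had 87.9 CPM (55.7 to 132). Endothelial-like nuclei had 95.7, of which 1 nucleus gave 18 of 29 UMIs, and 37.5 without that nucleus.

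Tgfb3, an isoform of epithelia and fibroblasts, was scarce throughout, with 71 and 74 UMIs in all alveolar nuclei (12.2 and 11.2 CPM). AT2-like, transitional-like and AT1-like nuclei stood between 9.56 and 17.1, and their intervals overlap in both libraries. Fibroblast-like nuclei of the CKO library had the highest level at 42.0 (21.0 to 75.2, 11 UMIs), against 6.99 (4.27 to 10.8) in leukocytes.

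Ltbp1, which anchors latent TGF-beta in the matrix, had its highest level in fibroblast-like nuclei. In the CKO library the 56 fibroblast-like nuclei had 775 CPM (672 to 890), with a UMI in 43 of them. They were 1.44% of the nuclei and held 65.3% of the Ltbp1 UMIs. Endothelial-like nuclei followed at 56.1 (32.7 to 89.9), and leukocytes had 6.64 (4.00 to 10.4) there and 0 UMIs in 103 nuclei of the control library, where 3 counts would be 8.95 CPM. AT1-like nuclei of the control library carried Ltbp1 at 83.7 CPM (62.9 to 109), while those of the CKO library had 13.2 (8.55 to 19.5). The AT1-like value of the control library rests on 54 UMIs in 18 of 147 nuclei, of which the leading 3 nuclei gave 10, 7 and 6. In AT2-like nuclei the levels were 3.30 (1.81 to 5.54) and 7.09 (4.50 to 10.6), near the leukocyte level.

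**Figure D1:**
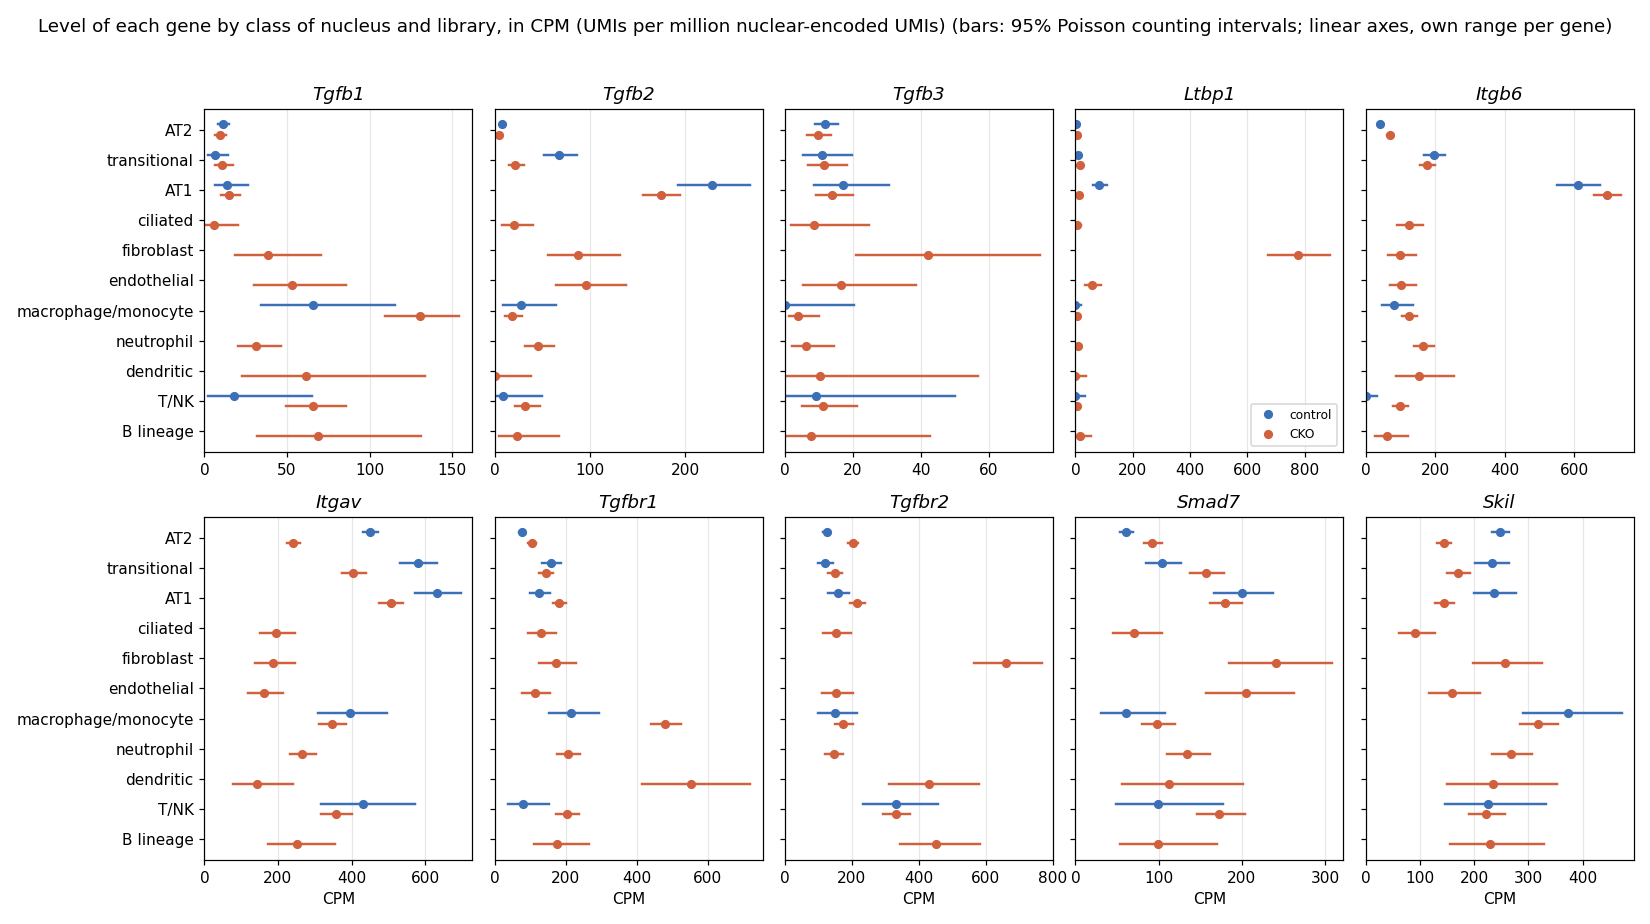
Level of each of the 10 genes, in CPM (horizontal axis, linear, with its own range for each gene), by class of nucleus (rows, classes with at least 30 nuclei) in the control library (blue) and the CKO library (orange), with 95% Poisson counting intervals as bars. Itgb6 and Tgfb2 peak in AT1-like nuclei of both libraries, Tgfb1 in macrophage- and monocyte-like nuclei, and Ltbp1 in fibroblast-like nuclei at 775.

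Itgb6, the epithelial chain that makes the activating integrin, had its highest level in AT1-like nuclei of both libraries, a cluster that had been drawn without it. AT1-like nuclei had 611 CPM (552 to 674) in the control library and 695 (658 to 734) in the CKO library. Transitional-like nuclei had 197 (169 to 227) and 177 (156 to 199), and AT2-like nuclei 41.3 (35.4 to 47.9) and 69.1 (60.3 to 78.7). The AT1-like over AT2-like ratio was 14.8-fold (log2 ratio 3.89, 3.63 to 4.15) and 10.1-fold (3.33, 3.13 to 3.54), with the transitional-like class in between in each library. AT1-like nuclei were 6.76% of control nuclei with 49.6% of the Itgb6 UMIs, and 11.9% of CKO nuclei with 57.7%.

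In the CKO library the Itgb6 level of AT2-like nuclei did not exceed that of another lineage. Leukocytes there had 127 CPM (114 to 140), and 114 (102 to 127) without the 2 nuclei that had the most Itgb6 UMIs, a check chosen after seeing the data. Leukocytes of the control library had 77.5 (50.7 to 114), above the AT2-like level, but 2 nuclei gave 21 of the 26 UMIs, and without them the level was 15.8 (5.12 to 36.8), under the AT2-like value. Among them, neutrophil-like nuclei of the CKO library had 166 (139 to 197) and T- and NK-like nuclei 97.7 (77.3 to 122). No UMI was seen in the 57 T- and NK-like nuclei of the control library, where 3 counts would be 27.0 CPM. Nuclei with at least 1000 nuclear-encoded UMIs were also thinned to 1000 each, and shallower nuclei were left out. Itgb6 was then found in 35.9% and 40.6% of AT1-like nuclei, 14.5% and 14.1% of transitional-like nuclei, and 3.70% and 5.67% of AT2-like nuclei. The AT2-like shares came from 1136 of 1471 and 1111 of 1223 nuclei. The unthinned shares, over all nuclei of each class, were 73.5% and 66.3%, 19.4% and 22.8%, and 8.63% and 13.3%. Thinned leukocytes of the CKO library gave 10.6% in neutrophil-like, 7.01% in macrophage- and monocyte-like and 4.51% in T- and NK-like nuclei, at or above the AT2-like share in the first 2. These shares rest on the deeper 226 of 484, 328 of 382 and 266 of 351 nuclei. The median depth of a nucleus was 4131 UMIs in the AT1-like class of the CKO library, 1005 in the neutrophil-like class and 1764 in the T- and NK-like class.

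Other RNA moved with Itgb6 in leukocytes. The 158 leukocyte nuclei of the CKO library with an Itgb6 UMI had a summed level of the 13 AT1 markers of 4782 CPM, against 2103 in the 1155 without one and 9417 in AT1-like nuclei. They were also deeper, with a median of 4208 against 1583 UMIs. The 2 groups were split on Itgb6 itself, and 0 doublets were removed from that library, so doublets remain among its nuclei. In the control library the 7 leukocyte nuclei with an Itgb6 UMI had 2721 (2324 to 3167), against 2088 (1920 to 2266) in the 96 without one. Tgfb2 UMIs per Itgb6 UMI were 0.251 (0.222 to 0.283) in AT1-like nuclei of the CKO library and 0.232 (0.181 to 0.295) in leukocytes of that library, but 0.0580 (0.0304 to 0.101) in AT2-like nuclei. Ciliated-like nuclei of that library had 0.159 (0.0605 to 0.356) and transitional-like nuclei 0.122 (0.0815 to 0.176). The leukocyte interval overlapped those of AT1-like and ciliated-like nuclei, and lay above those of AT2-like and transitional-like nuclei. In the control library the ratios of AT1-like nuclei, leukocytes and AT2-like nuclei were 0.373 (0.307 to 0.452), 0.231 (0.0777 to 0.573) and 0.189 (0.126 to 0.275). The leukocyte interval there overlapped both others. Where the leukocyte UMIs came from was not tested.

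Itgb6 and Tgfb2 were also looked at in the same AT1-like nuclei. At 1000 UMIs a nucleus, both were found in 9 of 145 nuclei of the control library (6.21%) and in 29 of 456 of those of the CKO library (6.36%). The product of the separate shares was 5.69% and 3.91%, so the pair was seen at about that product in the control library and above it in the other.

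Itgav, the alpha v chain that pairs with several beta chains, was broad. AT1-like nuclei had 633 CPM (573 to 697) and 506 (475 to 539), transitional-like nuclei 581 (533 to 632) and 405 (373 to 438), and AT2-like nuclei 451 (431 to 471) and 241 (225 to 259). Leukocytes had 394 (329 to 467), just under the AT2-like level, and 316 (296 to 337), above it. AT1-like nuclei exceeded AT2-like nuclei 1.40-fold and 2.10-fold. The same ratios for Itgb6 were 14.8-fold and 10.1-fold.

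**Figure D2:**
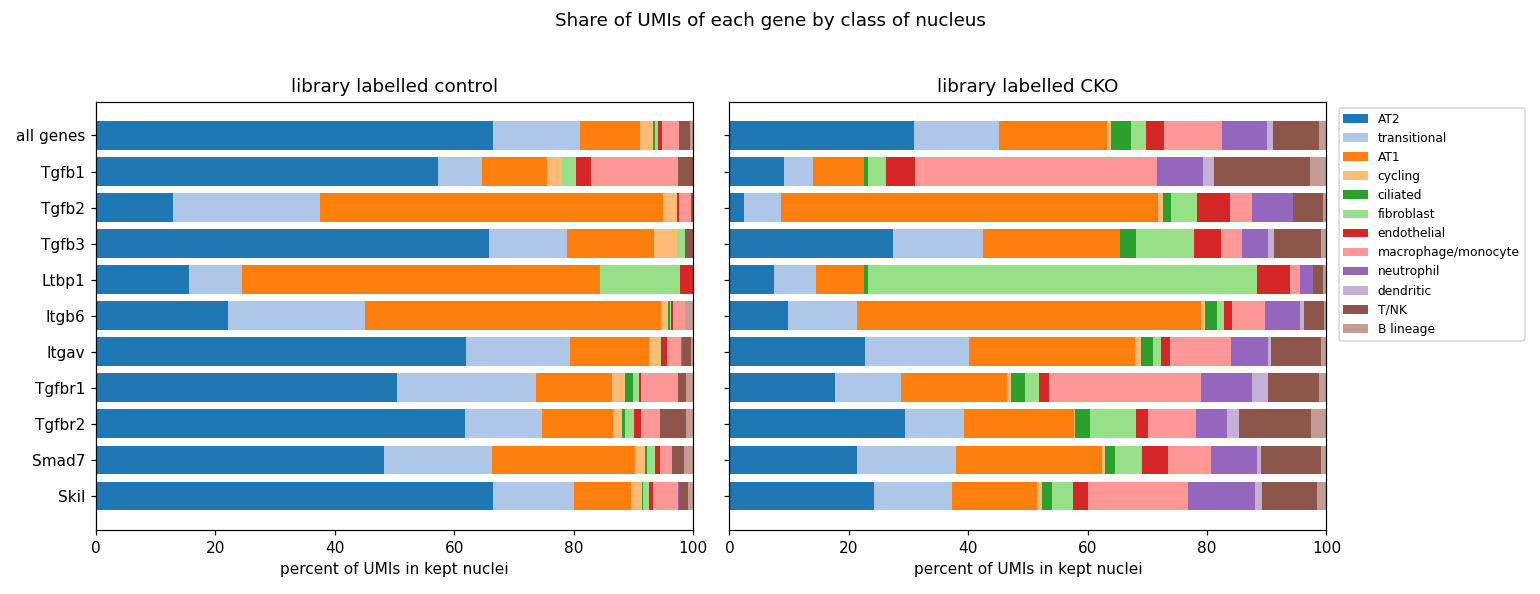
Percent of the UMIs of each gene (horizontal axis, 0 to 100) contributed by each class of nucleus (colours) in the control library (left) and the CKO library (right), with all genes together in the top row. AT1-like nuclei give 57.7% of Itgb6 and 63.2% of Tgfb2 in the CKO library, where leukocytes also give 68.9% of Tgfb1 and fibroblast-like nuclei 65.3% of Ltbp1.

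Both receptors were detected in every class with at least 30 nuclei. Tgfbr1, the signalling type I receptor, was highest in dendritic-like nuclei (552 CPM, 415 to 721) and macrophage- and monocyte-like nuclei (481, 439 to 525) of the CKO library, whose intervals overlap. Macrophage- and monocyte-like nuclei of the control library had 214 (152 to 293). AT2-like nuclei had 75.5 (67.5 to 84.2) and 105 (94.3 to 117), transitional-like nuclei 159 (134 to 187) and 144 (126 to 165), and AT1-like nuclei 126 (99.7 to 156) and 182 (163 to 202). The transitional-like level lay above the AT2-like level in both libraries, and its order against the AT1-like level differed between them, with intervals that overlap in both.

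Tgfbr2, the ligand-binding type II receptor, was highest in fibroblast-like nuclei of the CKO library at 661 CPM (566 to 767). B-lineage-like nuclei had 452 (344 to 583), dendritic-like nuclei 430 (310 to 581) and T- and NK-like nuclei 333 (294 to 375), and the intervals of these 4 classes overlap from each to the next. The T- and NK-like level was 333 (234 to 458) in the control library as well. AT2-like nuclei had 124 (114 to 135) and 202 (187 to 218), transitional-like nuclei 118 (97.1 to 142) and 148 (129 to 169), and AT1-like nuclei 158 (129 to 192) and 216 (195 to 238). No alveolar class stood 2-fold above another for either receptor except the transitional-like nuclei of the control library, whose Tgfbr1 level was 2.10-fold that of AT2-like nuclei.

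Of the feedback genes, Smad7 was highest among the alveolar classes in AT1-like nuclei and Skil was not. Smad7 stood at 200 CPM (167 to 238) in AT1-like nuclei of the control library and 180 (162 to 200) in those of the CKO library. Transitional-like nuclei had 104 (84.5 to 127) and 157 (137 to 178), and AT2-like nuclei 61.1 (53.9 to 69.0) and 92.5 (82.3 to 104). The AT1-like level was 3.27-fold and 1.95-fold the AT2-like level, and in the CKO library the AT1-like and transitional-like intervals overlap. Fibroblast-like (241), endothelial-like (205) and T- and NK-like (173) nuclei of the CKO library lay near the AT1-like level too. Leukocytes without the 2 nuclei with the most Smad7 UMIs had 68.6 (43.0 to 104) and 125 (112 to 139). The second value lies above the AT2-like level of that library. Skil ran from 232 to 248 CPM over the 3 alveolar classes of the control library and from 144 to 170 over those of the CKO library, with AT1-like over AT2-like ratios of 0.95 and 1.00. Its highest level among classes of at least 30 nuclei was in macrophage- and monocyte-like nuclei, at 373 (290 to 473) and 318 (285 to 355), while the 7 fibroblast-like nuclei of the control library had 557 on 17 UMIs.

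Counting members by a fold of at least 2 with at least 20 UMIs, 4 of 10 were higher in AT1-like than AT2-like nuclei of the control library (Itgb6, Ltbp1, Smad7 and Tgfb2), where 17.5% of all 10293 genes tested were. In the CKO library 3 of 10 were (Itgav, Itgb6 and Tgfb2), where 9.47% of 11207 genes were. Itgb6 and Tgfb2 are the members in both counts. None was 2-fold lower in either, where 10.1% and 4.61% of genes were.

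Steps through the transitional-like class gave the same leading genes. Transitional-like nuclei were at least 2-fold above AT2-like nuclei for 4 of 10 members in the control library (Itgb6 at 4.76-fold, Tgfb2 at 8.69-fold, Ltbp1 and Tgfbr1), where 17.7% of genes were, and for 3 of 10 in the CKO library (Itgb6 at 2.56-fold, Tgfb2 at 5.36-fold and Ltbp1), where 15.4% were. None was 2-fold lower (7.77% and 4.84%). Ltbp1 passed on few counts, with 8 transitional-like and 14 AT2-like UMIs in the control library, 7 of the 14 in 1 nucleus. In the CKO library its levels were 14.8 CPM (9.26 to 22.4) and 7.09 (4.50 to 10.6), with intervals that overlap. AT1-like nuclei were at least 2-fold above transitional-like nuclei for 3 of 9 members with enough UMIs in the control library (Itgb6 at 3.11-fold, Tgfb2 at 3.37-fold and Ltbp1), where 5.25% were, and for 2 of 10 in the CKO library (Itgb6 at 3.94-fold and Tgfb2 at 8.11-fold), where 3.38% were. None was 2-fold lower (5.52% and 7.14%). Itgb6 and Tgfb2 thus passed 2-fold at both steps in both libraries, though the transitional-like Tgfb2 level of the CKO library (21.5) was no higher than in its leukocytes (29.4).

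Against all other nuclei, alveolar nuclei of the control library had 0 members 2-fold higher (10.3% of genes) and 1 lower, Tgfb1 (11.5%). In the CKO library 1 was higher, Itgb6 at 2.19-fold (5.23%), and 2 were lower, Tgfb1 and Ltbp1 (18.4%).

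The study's own contrast sets the CKO library against the control library. Over all alveolar nuclei, Itgb6 was the only member past 2-fold, at 272 against 129 CPM (log2 ratio 1.07, counting interval 0.95 to 1.20). For background, 17.7% of the 13561 genes tested were at least 2-fold higher and 3.02% at least 2-fold lower, and the median gene stood at 0.47. Smad7 (0.66), Tgfbr2 (0.61), Tgfbr1 (0.53) and Tgfb2 (0.44) were higher with intervals above 0, though 0.44 lies under the median gene. Skil (-0.70, -0.82 to -0.59) and Itgav (-0.48, -0.55 to -0.40) were lower with intervals below 0. Tgfb1 (0.07), Tgfb3 (-0.13) and Ltbp1 (-0.31) had intervals that include 0. The median of the 10 genes was 0.25. With a scaling by the median of gene ratios, which takes out the general shift, Itgb6 stood at 0.63, Smad7 at 0.22, Tgfbr2 at 0.17, Tgfbr1 at 0.08, Tgfb2 at -0.01, Itgav at -0.92 and Skil at -1.15, so no member was then 2-fold higher and Skil was past 2-fold lower.

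The Itgb6 ratio moved with the makeup of the alveolar nuclei. The AT1-like class held 147 of 2026 control and 463 of 2314 CKO alveolar nuclei. Within classes the log2 ratios of Itgb6 were 0.74 (0.45 to 1.04) in AT2-like, -0.15 (-0.43 to 0.13) in transitional-like and 0.19 (0.02 to 0.35) in AT1-like nuclei. With the control nuclei weighted to the class makeup of the other library, the alveolar ratio was 0.19. The leukocyte level of Itgb6 was 77.5 and 127 CPM, or 15.8 and 114 without the leading 2 nuclei of each library, and the part of free RNA in the AT2-like difference was not tested.

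Within classes the widest ratios belonged to Ltbp1 and Tgfb2. Ltbp1 in AT1-like nuclei was 6.34-fold lower in the CKO library (log2 ratio -2.66, -3.41 to -1.95), where 3.31% of 9656 genes were at least 2-fold lower and 13% higher. Fibroblast markers in AT1-like nuclei summed to 1.55 CPM in the control library, where Ltbp1 was high, with 11 of 12 markers at 0, and to 11.6 in the other. Without nuclei that had a fibroblast marker UMI the ratio was -2.92, and without the leading nucleus of each library -2.69. In AT1-like nuclei of the control library 3 counts would be 4.65 CPM, so the marker sum there is under that floor. The part of fibroblast RNA in the Ltbp1 ratio was not tested. Nuclei classed one by one gave -0.79, and clusters at a Leiden resolution of 0.3 gave -1.40. In AT2-like nuclei Ltbp1 went the other way (1.10, 0.08 to 2.17) on 14 and 23 UMIs, and of the 14 UMIs 7 were in 1 nucleus.

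Tgfb2 in transitional-like nuclei was 3.15-fold lower in the CKO library (-1.65, -2.32 to -1.02), where 1.44% of 9951 genes were at least 2-fold lower and 12.8% higher. That ratio was 0.45 at a Leiden resolution of 1.0 and 0.34 with nuclei classed one by one, so its direction rests on how the transitional-like class is drawn. In AT1-like nuclei Tgfb2 stood at -0.39 (-0.67 to -0.10), and at 0.10 with no mitochondrial limit. Among AT2-like nuclei 1 of 10 members, Ltbp1, was 2-fold higher and none lower, where 17.8% and 4.56% of genes were.

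Itgav and Skil had lower levels in AT2-like nuclei of the CKO library, but the libraries fill different AT2-like clusters. The class ratios were -0.90 (-1.02 to -0.78) for Itgav and -0.79 (-0.95 to -0.63) for Skil. Within cluster 0, which held 77 control nuclei and 1190 of the CKO library, Itgav stood at 142 (99.9 to 196) in the control library and 237 (220 to 254) in the other, and Skil at 88.2 (55.9 to 132) and 143 (131 to 157). Both directions are opposite to the class ratio. Cluster 2, with 905 control nuclei and 12 of the other library, had 501 (477 to 525) for Itgav and 262 (245 to 280) for Skil in the control library. When each library was clustered on its own the AT2-like ratios were 0.93 and 0.48, but only 143 control nuclei were then AT2-like, against 1178 of the CKO library, and 983 control nuclei had no name. Cluster and library cannot be told apart here. Skil was also lower in AT1-like (-0.71) and transitional-like (-0.45) nuclei, and Itgav likewise (-0.32 and -0.52).

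**Figure D3:**
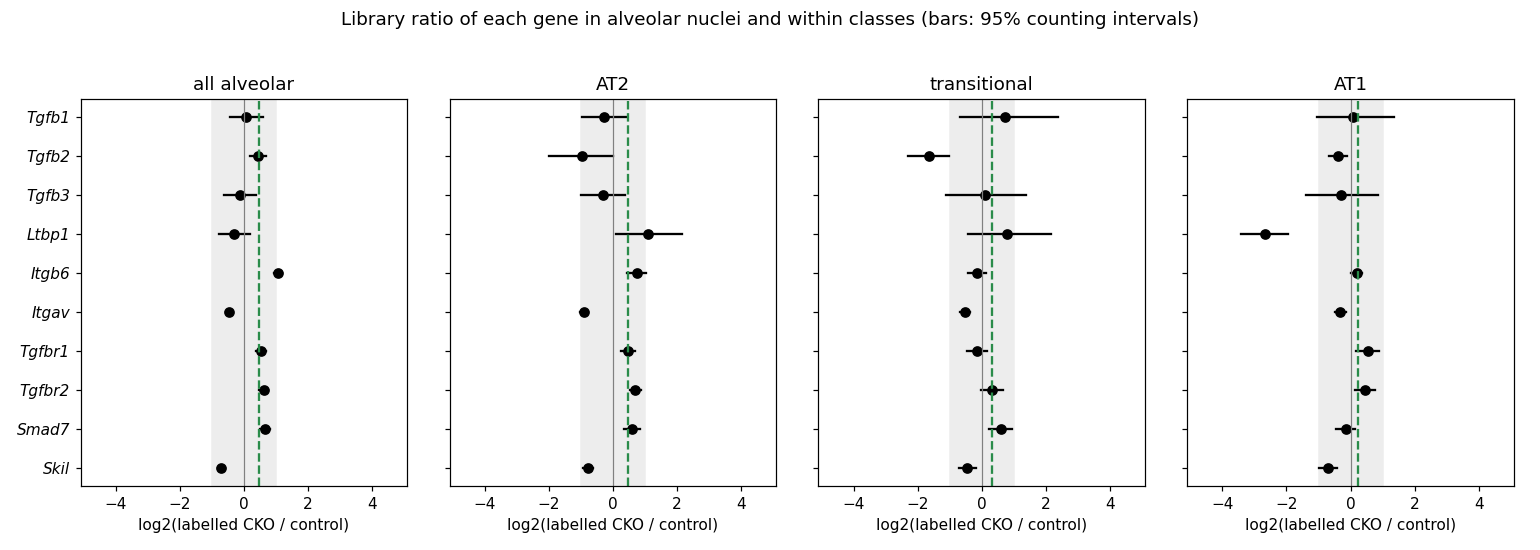
Log2 ratio of the CKO library over the control library (horizontal axis) for the 10 genes (rows) in all alveolar nuclei and within AT2-like, transitional-like and AT1-like nuclei, with 95% counting intervals; the shaded band is under 2-fold and the dashed line the median of all genes tested. Itgb6 lies past the band in all alveolar nuclei only, at 1.07, and Tgfb2 in transitional-like nuclei at -1.65. Ltbp1 lies past it in AT1-like nuclei at -2.66 and, the other way, in AT2-like nuclei at 1.10.

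The rest of the pathway was taken from 6 lists of other TGF-beta genes, 99 in all, compared between the libraries over alveolar nuclei. Of all 13561 genes tested there, 17.7% were at least 2-fold higher and 3.02% at least 2-fold lower. Of 14 measured latency and activation genes 2 were at least 2-fold higher and none lower, with a median of 0.27. The 2 were Furin, the protease that cuts the propeptide (1.22), and Mmp14 (1.04), while the lowest were Thbs1 (-0.50) and Itga5 (-0.44). Of 9 other receptors 1 was higher, Bmpr1b (1.15), with a median of 0.44. Beside it stood Bmpr2 (0.51), Acvr2b (0.32) and Acvr1 (0.30). Of 11 Smads and partners none passed 2-fold (median 0.34), with Trim33 (0.65), Smad4 (0.58), Smad5 (0.11) and Crebbp (-0.10) at the ends.

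Of 13 inhibitors 1 was lower, the decoy receptor Bambi (-1.07), and none higher, with a median of 0.19. Ldlrad4 (-0.44), Rnf111 (0.36) and Smurf1 (0.64) were the other genes at the ends. Of 20 measured target genes 8 were higher, where 17.7% of all genes were, with a median of 0.46. Vim (3.56) and Lox (2.52) led, and Timp3 stood at -0.47. Of 11 related ligands and antagonists 5 were higher, led by Fstl3 (1.99), and 1 lower, Gdf15 (-1.45), with Bmp4 at 0.72, Bmp2 at -0.14 and a median of 0.72.

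The median of all genes was 0.47, so 5 of the 6 list medians lie below it. Of the 16 listed genes that were 2-fold higher, 13 had a higher level in the other nuclei than in the alveolar nuclei of the CKO library, including 7 of the 8 target genes. Vim stood at 38.7 in alveolar and 259 in other nuclei, Col3a1 at 5.28 and 127, and Zeb2 at 19.6 and 944 CPM. Cdkn2b, at 18.4 and 10.9, was the target gene without that pattern. The share with that pattern among all genes 2-fold higher was not counted, so whether 13 of 16 is unusual is not known. In the CKO library 18.4% of all genes were at least 2-fold lower in alveolar than in other nuclei. Of the lists, 14 of 20 latency and activation genes, 13 of 22 target genes and 7 of 13 related ligands and antagonists were. So were 3 of 10 other receptors, 1 of 13 inhibitors and 0 of 11 Smads and partners. The part of RNA from other cells in the library ratios was not tested.

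For each member with at least 200 UMIs the genes of most similar level over 10 class and library profiles were found among 8609 genes, as a description without a test. The profiles share libraries and depth. Itgb6 was most like Ano1 (Pearson r = 0.97 across profiles), Ajuba and Ndnf, and Tgfb2 most like Lhfp (0.94), Kcnn3 and Tnc. Tgfb1 was most like Trps1 (0.98), Tm6sf1 and Fam49a, and Ltbp1 most like Pir (0.93), 2900026A02Rik and Lama2. Itgav was most like Fbxl18 (0.93), Aasdh and Gm28055, and Tgfbr1 most like Epn1 (0.96), Mkrn1 and Grb2. Tgfbr2 was most like Zdhhc20 (0.93), Rpa1 and Hnrnpll, Smad7 most like Erlin2 (0.97), Pabpc4 and Ccser2, and Skil most like Camk1d (0.89), Nfkbia and Ifi27l2a.

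Few start peaks differed 2-fold between AT1-like and AT2-like nuclei, among members as among all genes. Peaks within 1000 bases of a gene start were present for 9 of 10 members, and 0 of 9 were at least 2-fold more accessible in AT1-like than AT2-like nuclei in either library, where 4.51% of 13999 and 2.48% of 14345 genes were. None was 2-fold less accessible either (9.86% and 2.82% of genes). Itgb6 had no peak within 1000 bases of its start. The nearest peaks, within 2000 bases, gave AT1-like over AT2-like log2 ratios of -0.72 (-3.05 to 0.91) and 1.61 (0.66 to 2.57). A peak at its downstream RefSeq start, chr2:60673222-60673933, was called only in the CKO library and had 34 counts in AT2-like and 8 in AT1-like nuclei, a ratio of 0.62 (0.248 to 1.36). The peak just past the Tgfb2 start gave 9.72 and 9.92 CPM, here peak counts per 1000000 peak counts, in AT2-like and AT1-like nuclei of the control library, and 11.2 and 20.3 in those of the CKO library, a ratio of 1.81 (log2 0.85, 0.29 to 1.40). The Tgfb1 start shown above had counts in AT2-like, transitional-like, AT1-like, macrophage- and monocyte-like, and T- and NK-like nuclei of both libraries, with 52.6 CPM in AT2-like nuclei of the control library and 34.1 in those of the CKO library, against 40.3 in all other nuclei of the CKO library, although its RNA was 5.90-fold lower in alveolar nuclei there.

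Between the libraries, the shared start peaks of alveolar nuclei gave log2 ratios of -0.47 (-0.66 to -0.27) for Tgfb1 and 0.55 (0.26 to 0.85) for Tgfb3, beside a median of 0.06 over all genes. Their RNA ratios were 0.07 and -0.13. None of the 9 measured members passed 2-fold, where 3.67% of 14873 genes were higher and 0.733% lower.

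Some peaks inside the genes differed between classes. Over the whole Itgb6 gene, AT1-like nuclei had 1.83-fold and 1.62-fold the peak counts of AT2-like nuclei in the control library and the CKO library, and alveolar nuclei 2.30-fold and 2.18-fold those of other nuclei. Of 49 peaks in members that both libraries called and that held at least 20 counts in each, 7 were at least 2-fold higher in AT1-like nuclei in both libraries (14.3%), against 3.48% of 57302 such peaks genome-wide. They were 4 of 9 in Ltbp1, 2 of 12 in Itgb6 and 1 of 7 in Smad7. In the other direction 1, in Tgfbr2, was lower in both, against 6.69%. Peaks of 1 gene lie on the same DNA and are not independent.

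The Itgb6 peaks lie inside the gene, 82.6 and 10.9 kb from the start. The first, chr2:60639590-60640542 in the control library, was 10.7-fold (4.52 to 25.7) and 4.36-fold (2.62 to 7.38) higher in AT1-like nuclei, on 13 and 43 counts there. The other, chr2:60711247-60712152, was 3.12-fold (1.43 to 6.28) and 3.11-fold (1.70 to 5.76) higher. In Ltbp1, chr17:75110463-75111310 was 7.43-fold (3.21 to 16.7) and 46.1-fold (11.8 to 396) higher, the latter on 35 counts against 2 in AT2-like nuclei. The peak chr17:75112659-75113536 was 10.6-fold and 3.42-fold higher, and chr17:75306797-75307726 was 2.67-fold (0.978 to 6.31) and 3.51-fold (1.71 to 7.37) higher. The peak over the Ltbp1 start shown above, chr17:75178056-75178897, was 2.39-fold (0.885 to 5.58) and 2.01-fold (0.979 to 4.04) higher, with intervals that include 1. These peaks were picked for being higher in AT1-like nuclei of both libraries, so that direction is no finding. Another Ltbp1 peak, chr17:75322946-75323844, stood at 0.558-fold (0.148 to 1.49) and 0.0823-fold (0.00976 to 0.310). Over the whole Ltbp1 gene AT1-like nuclei had 1.79-fold and 1.31-fold the peak counts of AT2-like nuclei, beside RNA ratios of 25.3-fold and 1.86-fold.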

How the data were processed

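RNA and open chromatin were measured in the same nuclei by 10x multiome, with 1 joint library per genotype and 4 deposited samples. The authors deposited raw counts per barcode, UMIs per gene and transposition counts per peak, made with Cell Ranger ARC 2.0.1 per the file headers, and peaks were listed separately for each library. The submitters' processing notes also name Seurat 4.1.0, Signac 1.6.0 and the builds GRCm39 and GRCm38, with no role given. Gene positions in the files matched RefSeq GRCm38.

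Barcodes passed as nuclei where the mitochondrial share was below 20%, UMIs lay between 500 and 25000, peak counts lay between 1000 and 100000, and 300 or more genes were detected. Doublets were called with Scrublet, at an expected rate of 0.08, and removed (12 in the control library and 0 in the CKO library). The caller did not work in the CKO library, so doublets remain there. With 12 called beside 2173 kept nuclei, doublets may remain in the control library too. Clustering of both libraries together used scanpy 1.11.5 and leidenalg 0.10.2 (2000 variable genes, 30 components, 15 neighbours, resolution 0.6) without 109 pathway genes, members included. Clusters were named from 20 marker lists. Values were computed with Python 3.11.15, numpy 2.4.6, scipy 1.17.1 and pandas 2.3.3. Genes were counted as 2-fold higher or lower with at least 20 UMIs over the 2 groups compared. Level intervals are exact Poisson, ratio intervals exact conditional binomial, all at 95%. Among other pathway genes with at least 50 UMIs, the 2 highest and 2 lowest of each list by the interval bound of the library ratio nearest 0 were named, and genes past 2-fold that stand outside that rule were chosen after their values were seen. The values of 1 target gene are not reported here, though it counts in the list totals. The function for ratios and their intervals was tested on simulated Poisson counts, the kind of count error the intervals assume. Levels, thinning and class names were not tested in that way. The simulation cannot show how the intervals hold where the UMIs of a gene gather in few nuclei. With 1 library per genotype no test was run. The members and lists were chosen with earlier results of these data known.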

Additional observations from a re-analysis of the deposited data

Results flagged for a closer look

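Ltbp1 moved in opposite directions in 2 classes of alveolar nuclei. Its log2 ratio of the CKO library over the control library was 1.10 in AT2-like nuclei, on 14 and 23 UMIs, and -2.66 in AT1-like nuclei, on 54 and 25 UMIs. The difference between the classes was not tested, since each genotype has 1 library. In the control library 7 of the 14 AT2-like UMIs were in 1 nucleus.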

How the results depend on the processing

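With 1 library per genotype, intervals cover counting error only, and genotype, library, cell yield and free RNA cannot be told apart. Itgb6 was the 1 member past 2-fold in alveolar nuclei (1.07). No member was (0) with a mitochondrial share under 10%, with median-of-ratios scaling, without Gm42418 and AY036118 in the total, with control nuclei weighted to the other class makeup, with nuclei thinned to 1000 UMIs, without nuclei holding an immune marker UMI, and, chosen after seeing the data, without the AT2-like cluster led by those transcripts. With each library clustered on its own 4 were, but the alveolar nuclei of the control library were then 143 AT2-like and 333 activated AT2-like nuclei. That library then had no transitional-like or AT1-like class, and held 548 club-like and 983 unnamed nuclei. The count of members 2-fold lower, 0, was 1 under the 10% limit, median-of-ratios, weighting and thinning. Over its alternatives the Itgb6 alveolar ratio ran from 0.19 to 2.71, the last value with own clustering. Itgav ran from -0.92 to -0.32 and Skil from -1.15 to -0.44, below 0 throughout.

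The Ltbp1 ratio in AT1-like nuclei (-2.66) was -1.54 with no mitochondrial limit, -4.09 under 10%, -4.74 thinned, -1.40 at Leiden resolution 0.3 and -0.79 with nuclei classed one by one. The AT1-like over AT2-like ratio of Itgb6 was 4.20, 3.13 and 3.25 in the control library (under 10%, resolution 0.3, one by one) against 3.89, and 2.51, 2.48, 3.09 and 2.63 in the CKO library (resolution 0.3, resolution 1.0, no immune marker UMI, one by one) against 3.33. That of Tgfb2 was 3.78, 3.97 and 3.87 in the control library (under 10%, thinned, resolution 0.3) against 4.87, and 4.31, 3.69, 4.31 and 3.97 in the CKO library (resolution 0.3, resolution 1.0, no immune marker UMI, one by one) against 5.44. It stayed above 2-fold throughout these settings. Within 2000 bases of a start 1 member, Itgb6, was 2-fold more accessible in AT1-like nuclei of the CKO library, against 0 within 1000.

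Direction changed in these cases. The Tgfb2 ratio was 0.10 in AT1-like nuclei with no mitochondrial limit. In alveolar nuclei it was -0.0057 with median-of-ratios, -0.57 weighted and -0.13 without immune marker UMIs, and in transitional-like nuclei 0.45 at resolution 1.0 and 0.34 one by one. The Itgb6 ratio in AT1-like nuclei was -0.42 under 10%, -0.34 at resolution 1.0 and -0.15 without immune marker UMIs. At resolution 1.0 the alveolar over other ratios in the control library were -0.35 for Tgfb2, -0.20 for Itgb6 and -0.035 for Itgav. With each library clustered on its own, Itgav was 0.93 and Skil 0.48 in AT2-like nuclei. The cause was not tested. No paired analysis was possible because each genotype has 1 library.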

Other observations

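Some other genes that hold or free latent TGF-beta also stood higher in AT1-like than AT2-like nuclei. Of the latency and activation genes measured, 6 of 11 were at least 2-fold higher in the control library and 5 of 12 in the CKO library, where 17.5% and 9.47% of all genes were, and none was 2-fold lower. The list had median log2 ratios of 1.08 and 0.82 beside 0.27 and 0.13 for all genes. Fn1, fibronectin, stood at 9.91 CPM in AT2-like and 240 in AT1-like nuclei of the control library and at 20.04 and 108 in the CKO library, though other nuclei had 293 and 381. Ltbp2, a relative of Ltbp1, stood at 4.48 and 55.8, then 3.39 and 39.6. Mmp14, a membrane protease, stood at 17.2 and 77.5, then 33.0 and 107. The integrin chains Itgb3 and Itgb5 were 7.23-fold and 6.57-fold higher in the control library, and 7.71-fold and 2.09-fold in the CKO library. Against all other nuclei, alveolar nuclei had 5 of 13 measured genes of this list 2-fold lower (control library) and 14 of 20 (CKO library). None was 2-fold higher (10.3% and 5.23% of genes), while 11.5% and 18.4% of genes were lower. Fn1 and Itgb5 were among the lower ones in both libraries, and Itgb3 in the CKO library.

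Of the target genes measured, 6 of 14 and 8 of 19 were at least 2-fold higher in AT1-like nuclei, against the same shares of all genes. Zeb2 was at least 2-fold lower in the control library, and none was in the CKO library (10.1% and 4.61% of all genes). Ctgf, a matricellular protein, stood at 3.07 CPM in AT2-like and 184 in AT1-like nuclei of the control library, and at 6.78 and 128 in the CKO library. Cyr61, its relative, stood at 103 and 343, then 75.6 and 345, and Itga2 at 5.43 and 160, then 5.55 and 125. Cdkn2b, a cell cycle inhibitor, was 5.16-fold and 4.28-fold higher. Against all other nuclei, alveolar nuclei had 8 of 18 target genes 2-fold lower in the control library, Itga2 among them, and 13 of 22 in the CKO library. None was 2-fold higher, while 11.5% and 18.4% of all genes were lower. The co-receptor Tgfbr3 was 2.44-fold and 2.22-fold lower in AT1-like nuclei.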
